A study of Mus musculus with 6 samples.

Results

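The genes examined were Trp53, which encodes the transcription factor p53, and 9 genes that p53 is known to activate directly: Mdm2, Ccng1, Zmat3, Btg2, Plk2, Bax, Sesn1, Sesn2 and Gdf15. They and the gene lists used below were chosen by name, from general knowledge of the pathway but with earlier results of these data known. Trp53 and its 9 targets make up 10 of the 55401 genes counted in the data. All 10 were matched by symbol to an Ensembl identifier, and all 10 passed the filter on low counts that left 18539 genes to test. RNA was sequenced from NIH3T3 cells, an immortalized line of mouse embryonic fibroblasts, that carried either an empty vector or TAZ-CAMTA1 (TC), the fusion oncoprotein of epithelioid hemangioendothelioma, which retains the TEAD-binding part of the transcriptional coactivator TAZ. There were 3 groups: empty vector cells in the vehicle DMSO (EV, 2 libraries), TC cells in DMSO (TC, 1 library) and TC cells given 10 μM aurintricarboxylic acid for 48 h (TC + ATA, 3 libraries). ATA was studied as a small molecule that disrupts the interaction of TAZ with TEAD. TC was expressed stably, from a vector whose promoter, and from a cell pool or clone whose origin, are not given in the sources used here. Nor is it given whether the libraries of a group came from separate cultures, so p-values measure only the spread between these libraries, which may be technical.

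The libraries held 74413193 and 70428345 counts in EV, 71677675 in TC and 58471484, 72252063 and 69969024 in TC + ATA. Levels are given in CPM, counts scaled to the size of the library after correction by the trimmed mean of M values (TMM). A gene was called where the adjusted p of edgeR's quasi-likelihood test, fitted to all 6 libraries and adjusted over all genes tested, was at most 0.05. The lone TC library was assumed to vary like the other groups, and it enters the comparison with EV and the comparison with TC + ATA, in opposite roles. The label of the cells was checked against marker genes. The summed level of 9 fibroblast markers was 14705 to 19392 CPM, led by the collagen gene Col1a2, whereas 5 epithelial markers reached 1.30 to 3.93 CPM, 5 endothelial markers 1.64 to 3.65 CPM and 5 haematopoietic markers 2.83 to 8.51 CPM, the highest gene of these lists being Krt14, Pecam1 and Ptprc in turn. The epithelial gene Epcam was at 0 counts in EV replicate 2, TC and TC + ATA replicates 1 and 2. Of the fibroblast markers, 2 were called higher (Col1a1 and Vim) and 3 lower (Pdgfra, Thy1 and Fn1) in TC versus EV, which is 55.6% of the 9 beside 28.0% of all genes (14.8% higher and 13.2% lower). Of the others Krt14 and Cdh5 were called higher in TC versus EV, at no more than 3.45 CPM. In TC + ATA versus EV, 5 fibroblast markers were called higher and 2 lower, or 77.8% beside 36.6% of all genes. The endothelial gene Kdr was called higher there. In TC + ATA versus TC edgeR called none of the markers, beside 0.583% of all genes. DESeq2 called 2 of the 9 fibroblast markers there, beside 1.12% of 28562 genes. The part of these markers in the results below was not tested. In bulk RNA, fewer cells of a type and less RNA per cell cannot be told apart.

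p53 is held at a low level in unstressed cells by the ubiquitin ligase Mdm2, itself a p53 target, which closes a negative feedback loop. After DNA damage or other stress p53 is stabilized, largely without a rise in its messenger RNA, and activates genes of cell cycle arrest, apoptosis, DNA repair and metabolism, so that the levels of its targets are commonly used as a readout of its activity. NIH3T3 cells are known to have lost the Ink4a/Arf locus, whose Arf product restrains Mdm2. The gene of that locus, Cdkn2a, was at 0 counts in all 6 libraries. In these libraries 3 counts would correspond to 0.0403 to 0.0513 CPM when scaled by library totals alone, without the TMM correction.

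p53 binds as a tetramer to a 20-base site made of 2 adjacent 10-base half-sites, each with a conserved 4-base centre. The promoter windows of RefSeq (GRCm38.p6, 250 bases before to 50 bases after a start) were searched for the p53 half-site on both strands and for the 20 bases that fit best to the pair without a spacer. An entry was found for 9 of the 10 genes, with 11 windows in all. The windows that fit at 17 or more of the 20 bases are printed below with 5 flanking bases on each side, 5′ to 3′ on the strand of the gene, to show how closely the letters near these starts fit the p53 site. Capitals mark the 4-base centre of each half-site. Cdkn1a, the gene of the cell cycle inhibitor p21 and the best known p53 target, is shown for comparison.
Trp53, chr11:69580279-69580308, plus strand: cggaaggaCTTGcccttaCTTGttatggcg
Ccng1, chr11:40755457-40755486, minus strand: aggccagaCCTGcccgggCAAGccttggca
Bax, chr7:45467085-45467114, minus strand: tgacaagcATATcccaggCAAGctttgaac
Sesn1, chr10:41887261-41887290, plus strand: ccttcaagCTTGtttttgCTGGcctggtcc
Cdkn1a, chr17:29090923-29090952, plus strand: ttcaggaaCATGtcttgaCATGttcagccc
The windows of Ccng1 and Cdkn1a fit at 19 of 20 bases, which 0.0883% of the 32851 promoter windows of RefSeq match or exceed, and those of Trp53, Bax and the second start of Sesn1 fit at 17, matched or exceeded by 6.29%. The sites are centred 185 bases before the start in Ccng1, 201 in Bax, 163 in Sesn1, 65 in Trp53 and 41 in Cdkn1a. For Cdkn1a this is the first start, and the window at its second start fit at 15 bases, matched or exceeded by 76.6%. At least 1 exact half-site lay in the windows of Trp53, Mdm2, Ccng1, Bax and Sesn1 and in 8.36% of all windows. CATG at both centres of adjacent half-sites, a pattern that overlaps the half-site pair and reads alike on both strands, occurred in 0.712% of windows and, among these genes, in Cdkn1a. Btg2 had its best fit at 16 bases, and Mdm2, Plk2, Sesn2 and Gdf15 at 15, which 76.6% of windows match or exceed. The window at the first start of Sesn1 fit at 14 bases, matched or exceeded by 98.5%. A match of letters is a description and was not tested for binding, and many p53 sites lie outside such windows.

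In cells expressing TC, 2 of the 10 genes were called higher than in EV (Mdm2 and Gdf15), 2 were called lower (Btg2 and Sesn1) and 6 were not called. Of all genes tested, 28.0% were called in TC versus EV, 14.8% higher and 13.2% lower, so that 2 of 10 in each direction lay near the background. In 5 of the 10 genes the TC library was above both EV libraries and in 5 it was below both, beside 38.9% and 40.0% of all genes. The median log2 fold change of the 10 genes was −0.053, beside −0.03 over all genes. Their median absolute log2 fold change was 0.29, beside 0.385 over all genes. Among the 4 genes called, the fold change ran from 0.459 (Sesn1) to 3.61 (Gdf15).

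**Figure D1:**
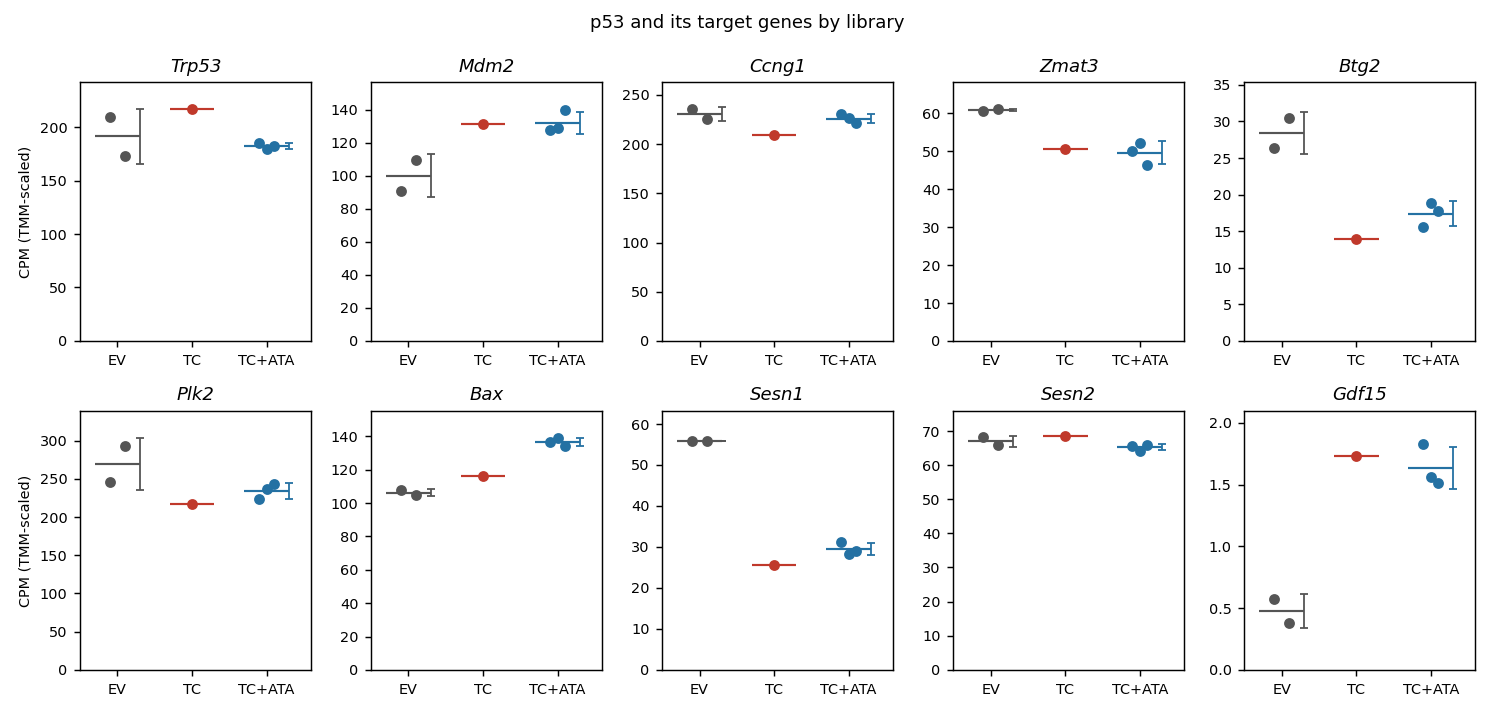
Level in CPM (TMM-scaled, linear axes from 0, one panel per gene) of Trp53 and its 9 targets in the 6 libraries. Points are libraries, horizontal lines are group means and the offset bars are the SD of EV (n = 2) and TC + ATA (n = 3), with no SD for the single TC library. Sesn1 and Btg2 sit lower and Gdf15 higher in all 4 TC-expressing libraries than in both EV libraries.

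Trp53 itself (ENSMUSG00000059552, GRCm38 chromosome 11, 69580359 to 69591873, plus strand) measured 209.8 and 173 CPM in EV, 217 CPM in TC and 185, 179.7 and 183 CPM in TC + ATA. The TC library was the highest, but the EV pair spanned a range wider than the TC + ATA libraries and enclosed all 3 of them. Trp53 was not called in TC versus EV (log2 fold change 0.18 ± 0.11 SE, adjusted p = 0.275 by edgeR), with a 95% interval from −0.07 to 0.43. The direction of TC + ATA versus EV depended on 1 EV library. The log2 fold change there was −0.07 in all libraries, 0.06 without EV replicate 1 and −0.19 without EV replicate 2. Without EV replicate 1, Trp53 was called in TC versus EV (log2 fold change 0.31, adjusted p = 0.000221 by edgeR), and without EV replicate 2 the value was 0.046 (adjusted p = 0.459). The processed pseudogene Trp53-ps, a near copy of Trp53 on chromosome 17, had 264 and 216 counts in EV, 285 in TC and 175, 225 and 190 in TC + ATA, beside 10505 to 15689 counts of Trp53. How reads that match both were assigned is not given in the sources used here.

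Mdm2, the ubiquitin ligase that marks p53 for degradation (ENSMUSG00000020184, chromosome 10, 117688875 to 117710758, minus strand), measured 90.9 and 109.6 CPM in EV, 131 CPM in TC and 128, 129 and 139.8 CPM in TC + ATA. All 4 TC-expressing libraries were above both EV libraries. Its log2 fold change over EV was 0.39 ± 0.11 (SE), a 1.31-fold rise (adjusted p = 0.0324 by edgeR), and was 0.25 without EV replicate 1 and 0.53 without EV replicate 2. Mdm2 was no longer called when the fit held the EV and TC libraries alone (adjusted p = 0.109), with scaling by library size alone (0.191) and without any one of the TC + ATA libraries (0.0644 to 0.0703), each again by edgeR. Ccng1, which encodes cyclin G1, a partner of the phosphatase PP2A that acts on Mdm2 (ENSMUSG00000020326, chromosome 11, 40748552 to 40755311, minus strand), measured 235 and 225 CPM in EV, 209 CPM in TC and 230.4, 226 and 221 CPM in TC + ATA. The TC library was the lowest of the 6, and the TC + ATA libraries overlapped EV. Ccng1 was not called in TC versus EV (log2 fold change −0.14, 95% interval −0.32 to 0.04, adjusted p = 0.248 by edgeR). It was called lower in 3 of 12 alternative fits, with scaling by library size (adjusted p = 0.0276) and without EV replicate 1 (0.0496) or replicate 2 (0.00893), each by edgeR.

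Zmat3, an RNA-binding zinc finger protein of the p53 response (ENSMUSG00000027663, chromosome 3, 32334792 to 32366014, minus strand), was at 60.6 and 61.1 CPM in EV, 50.6 CPM in TC and 50.15, 52.3 and 46.4 CPM in TC + ATA. Every TC-expressing library was below both EV libraries. It missed the threshold in TC versus EV (log2 fold change −0.27 ± 0.09 SE, adjusted p = 0.0630 by edgeR), which it passed in 5 of 12 alternative fits, and passed it in TC + ATA versus EV (−0.30 ± 0.07, adjusted p = 0.00856 by edgeR).

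Among the genes of growth arrest, Btg2, an antiproliferative cofactor of messenger RNA deadenylation (ENSMUSG00000020423, chromosome 1, 134075170 to 134079120, minus strand), measured 26.4 and 30.4 CPM in EV, 13.9 CPM in TC and 15.6, 18.9 and 17.7 CPM in TC + ATA. The TC library was the lowest, the TC + ATA libraries lay between it and EV, and the groups did not overlap. Btg2 fell by 1.03 on the log2 scale in TC versus EV, to 0.490-fold (SE 0.15, adjusted p = 0.000814 by edgeR). Plk2, a polo-like kinase of centriole duplication that p53 induces (ENSMUSG00000021701, chromosome 13, 110395046 to 110400844, plus strand), measured 246 and 293 CPM in EV, 218 CPM in TC and 223, 236 and 243 CPM in TC + ATA. All TC-expressing libraries were below both EV libraries, although the EV pair differed by more than the gap to the nearest of them. Plk2 was not called in TC versus EV (log2 fold change −0.31 ± 0.12 SE, adjusted p = 0.0784 by edgeR). It was called lower in 4 of 12 alternative fits, among them DESeq2 (adjusted p = 0.0499), and its log2 fold change was −0.44 without EV replicate 1 and −0.18 without EV replicate 2.

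Bax, which permeabilizes the outer mitochondrial membrane in apoptosis (ENSMUSG00000003873, chromosome 7, 45461697 to 45466898, minus strand), measured 108 and 105 CPM in EV, 116 CPM in TC and 137, 139 and 134 CPM in TC + ATA. The 3 groups did not overlap and were ordered EV, TC, TC + ATA. Bax was not called in TC versus EV (log2 fold change 0.13, 95% interval −0.04 to 0.31, adjusted p = 0.246 by edgeR). Its value there was 0.02 with scaling by library size and 0.14 without EV replicate 1. Bax was called higher in TC + ATA versus EV (0.36 ± 0.06 SE, adjusted p = 0.00113 by edgeR). Of its 1576 exonic bases, 192 are shared with Gm45808 on the same strand, and how reads on such bases were counted is not given in the sources used here.

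The sestrins restrain mTORC1 under stress, and p53 is known to activate Sesn1 and Sesn2. Sesn1 (ENSMUSG00000038332, chromosome 10, 41809935 to 41908424, plus strand) measured 55.8 and 55.9 CPM in EV, 25.6 CPM in TC and 31.1, 28.3 and 28.9 CPM in TC + ATA. The EV libraries were nearly equal and lay well above all TC-expressing libraries. Sesn1 fell by 1.12 on the log2 scale in TC versus EV, to 0.459-fold (SE 0.10, adjusted p = 3.8e-05 by edgeR), and was called lower in all 12 alternative fits of this comparison. Sesn2 (ENSMUSG00000028893, chromosome 4, 132492032 to 132510501, minus strand) measured 68.2 and 65.8 CPM in EV, 68.5 CPM in TC and 65.7, 64.2 and 65.9 CPM in TC + ATA. Its 6 libraries spanned a narrow range, and it was not called in TC versus EV (log2 fold change 0.03, 95% interval −0.14 to 0.21, adjusted p = 0.804 by edgeR), where scaling by library size turned the sign (−0.075). The difference between Sesn1 and Sesn2 was not itself tested.

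Gdf15, a secreted stress cytokine of the TGF-β superfamily (ENSMUSG00000038508, chromosome 8, 70629393 to 70632456, minus strand), was the least abundant of the 10 genes. It had 43 and 29 counts in EV, 120 counts in TC and 104, 111 and 105 counts in TC + ATA, which are 0.575 and 0.380 CPM, 1.73 CPM, and 1.83, 1.57 and 1.51 CPM. All TC-expressing libraries lay above both EV libraries. Over EV, its log2 fold change in TC was 1.85 ± 0.35 (SE), a 3.61-fold rise from a low level (adjusted p = 0.00399 by edgeR).

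To set the genes beside each other, CPM was divided by exonic length in kb. On this scale Bax was the highest, at a mean of 78.1 CPM per kb over the 6 libraries, followed by Ccng1 (64.0), Plk2 (54.1), Trp53 (47.3), Mdm2 (23.9), Sesn2 (19.1), Sesn1 (9.44), Btg2 (7.47), Zmat3 (4.68) and Gdf15 (0.683), all in CPM per kb. The ranges of neighbours over the libraries overlapped except between Trp53 and Mdm2, between Sesn2 and Sesn1 and between Zmat3 and Gdf15.

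The effect of ATA was addressed by TC + ATA versus TC. None of the 10 genes was called there, against a background of 0.583% of all genes by edgeR's quasi-likelihood test. At an unadjusted p under 0.05 edgeR gave 3 of the 10 genes (Trp53, Btg2 and Bax), beside 9.61% of all genes, and DESeq2 also called 0 after adjustment. In 5 genes all TC + ATA libraries were above TC and in 2 all were below, beside 30.5% and 32.7% of all genes. Their median log2 fold change was 0.058, beside 0.00 over all genes, and the values ran from −0.25 (Trp53) to 0.32 (Btg2). Trp53 was lower in each TC + ATA library than in TC (log2 fold change −0.25, 95% interval −0.48 to −0.02, adjusted p = 0.481 by edgeR). Bax was higher in each (0.23, 95% interval 0.07 to 0.40, adjusted p = 0.311 by edgeR). When the EV libraries were kept out of the fit, so that the spread came from the TC + ATA libraries alone, Trp53 was called lower (adjusted p = 0.00251) and Bax higher (adjusted p = 0.00462) by edgeR, where 7.93% of all genes were called. The EV pair differed more between its libraries (chi-square per degree of freedom over all genes 46.2) than any pair of TC + ATA libraries (4.85 to 5.41).

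Of the 4 genes called in TC versus EV, the log2 fold changes in TC + ATA versus TC were 0.01 for Mdm2 (95% interval −0.24 to 0.26), −0.08 for Gdf15 (−0.81 to 0.65), 0.32 for Btg2 (0.02 to 0.63) and 0.20 for Sesn1 (−0.0003 to 0.40). The values of Btg2, Sesn1 and Gdf15 are opposite in sign to those in TC versus EV. Among these, Gdf15 and, narrowly, Sesn1 had an interval on both sides of 0. Both comparisons rest on the 1 TC library. The comparison of TC + ATA with EV does not use the TC library as a group, and differs in both the fusion and ATA, and in it all 4 were called in the direction seen in TC: Mdm2 at 0.40 (adjusted p = 0.00651), Gdf15 at 1.77 (0.00125), Btg2 at −0.71 (0.000647) and Sesn1 at −0.92 (9.36e-06) by edgeR, with the EV libraries shared between these comparisons. The call of Mdm2 there was lost with scaling by library size (adjusted p = 0.0544 by edgeR), and its value without EV replicate 1 was 0.26. In all, 6 of the 10 genes were called in TC + ATA versus EV, 3 higher (Mdm2, Bax and Gdf15) and 3 lower (Zmat3, Btg2 and Sesn1), where 36.6% of all genes were called, 18.0% higher and 18.6% lower. The libraries did not overlap in 3 genes above and 4 below EV, beside 28.7% and 30.1% of all genes. Trp53, Ccng1, Plk2 and Sesn2 were not called there, with log2 fold changes of −0.07, −0.03, −0.20 and −0.04 (adjusted p = 0.547, 0.753, 0.0927 and 0.645 by edgeR). Plk2 was called lower there without EV replicate 1 (−0.34, adjusted p = 0.000166 by edgeR) and without the filter on low counts (0.0381), whereas without EV replicate 2 its value was −0.058 (0.382).

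**Figure D2:**
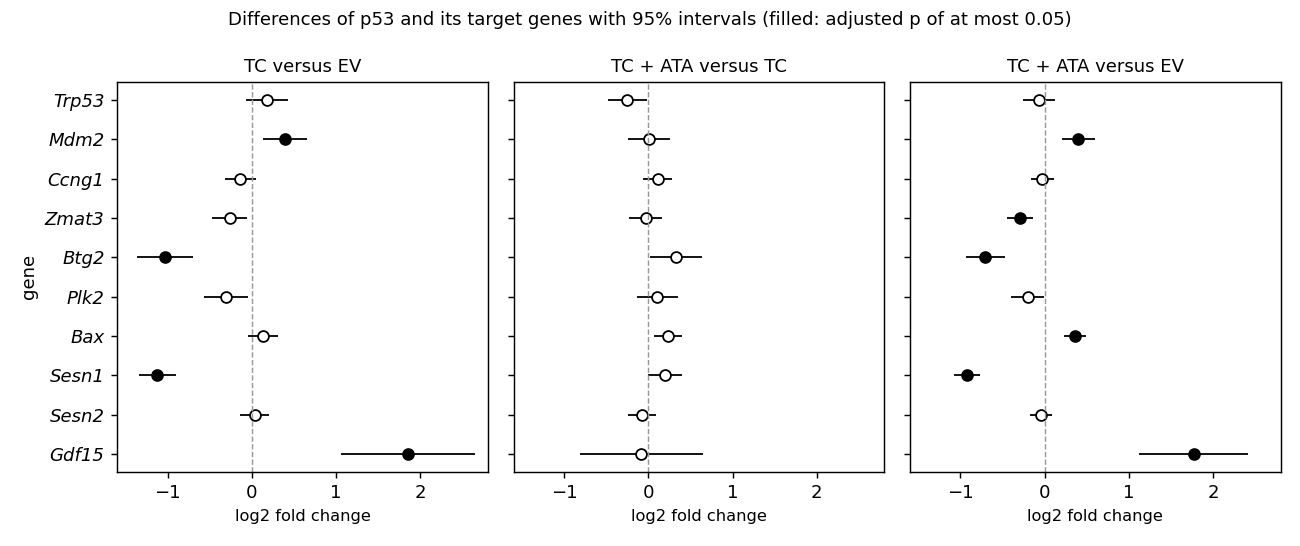
Log2 fold change (x axis) of the 10 genes in each of the 3 comparisons, with 95% intervals as bars and filled points where edgeR's adjusted p was at most 0.05. Filled points lie on both sides of 0 in both comparisons with EV, and there are none in TC + ATA versus TC.

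A list of 36 other p53 targets, of which 34 were tested (Rprm and Sco2 were not, at 2 counts or fewer in every library), gave calls in both directions. In TC versus EV 13 were called, 8 higher and 5 lower, which is 38.2% of those tested beside the background of 28.0%, with a median log2 fold change of 0.011, or 0.005 without Perp, which had 0 counts in both EV libraries. The cell cycle arrest genes were led by Gadd45a, a growth arrest gene also induced without p53, at 12.6 and 14.6 CPM in EV, 40.6 CPM in TC and 36.3, 33.6 and 37.4 CPM in TC + ATA, with a log2 fold change of 1.58 ± 0.11 (SE, adjusted p = 1.24e-05 by edgeR). The phosphatase gene Ptpn14, whose product binds the TAZ paralogue YAP, rose from 108 and 107 CPM to 227 CPM in TC (log2 fold change 1.08, adjusted p = 1.43e-05 by edgeR). The receptor gene Eda2r rose from 14.7 and 16.3 CPM to 32.6 CPM (1.07, adjusted p = 4.91e-05 by edgeR). In the other direction, the autophagy regulator Dram1 fell from 11.1 and 13.1 CPM to 3.63 CPM (log2 fold change −1.74, adjusted p = 0.000133 by edgeR) and the nucleotide excision repair nuclease Ercc5 from 32.1 and 40.2 CPM to 18.8 CPM (−0.94, adjusted p = 0.00096 by edgeR). By role, 2 of 4 tested arrest genes were called higher and none lower, 4 of 12 apoptosis genes higher and 2 lower, and 2 of 5 metabolism genes higher and none lower. None of 5 repair genes was called higher and 1 lower, none of 4 feedback genes higher and 1 lower, and none of 4 other genes higher and 1 lower. Of all genes, 14.8% were called higher and 13.2% lower. The roles hold few genes, and differences between them were not tested.

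Cdkn1a was at 127 and 122 CPM in EV, 125 CPM in TC and 152, 153 and 158 CPM in TC + ATA. The TC library lay between the EV libraries, and all TC + ATA libraries lay above the other 3. Of its 3553 exonic bases, 273 lie opposite an antisense gene, as do 337 of 1764 in Gadd45a, and reads of the pairs cannot be told apart if strand was not used in counting. Between TC and EV its log2 fold change was 0.01 (95% interval −0.17 to 0.18, adjusted p = 0.973 by edgeR), and scaling by library size or upper quartile turned its sign. Between TC + ATA and TC it was 0.31 ± 0.08 (SE, adjusted p = 0.156 by edgeR), and 0.32 (adjusted p = 0.00125 by edgeR) with the EV libraries kept out. Cdkn1a was called higher in TC + ATA versus EV (0.31, adjusted p = 0.00293 by edgeR).

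Ephx1, the microsomal epoxide hydrolase, was the 1 gene of the 34 called in TC + ATA versus TC, or 2.94% of those tested beside 0.583% of all genes. It measured 103 and 86.2 CPM in EV, 172 CPM in TC and 280.4, 274 and 268 CPM in TC + ATA, in 3 groups without overlap. It was higher in TC versus EV (log2 fold change 0.86, adjusted p = 0.000355 by edgeR) and higher again in TC + ATA versus TC (0.68 ± 0.11 SE, adjusted p = 0.0316 by edgeR), and the latter call was lost without any one of the TC + ATA libraries (adjusted p = 0.160 to 0.182 by edgeR). Trp53inp1, a p53 target of stress-induced cell death, measured 12.02 and 15.8 CPM in EV, 9.78 CPM in TC and 14.4, 14.8 and 15.3 CPM in TC + ATA. It was called lower in TC versus EV (−0.51, adjusted p = 0.0467 by edgeR), a call made in 5 of 12 alternative fits, with a value of −0.71 without EV replicate 1 and −0.30 (adjusted p = 0.0613) without EV replicate 2. Its value in TC + ATA versus TC was 0.60 (adjusted p = 0.186 by edgeR). It was called there by DESeq2 (adjusted p = 0.0406), and by edgeR without the filter on low counts (0.0277) and with the EV libraries kept out (0.00276). Without EV replicate 1 the value was 0.60 and without EV replicate 2 it was 0.61. In those fits, as with EV kept out, the spread came from the TC + ATA libraries alone. Against EV, 16 of the 34 genes were called in TC + ATA, 12 higher and 4 lower, or 47.1% beside 36.6% of all genes (18.0% higher and 18.6% lower). The 4 lower became 8 without EV replicate 1, 7 with scaling by library size and 2 with the filter at 5 CPM.

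**Figure D3:**
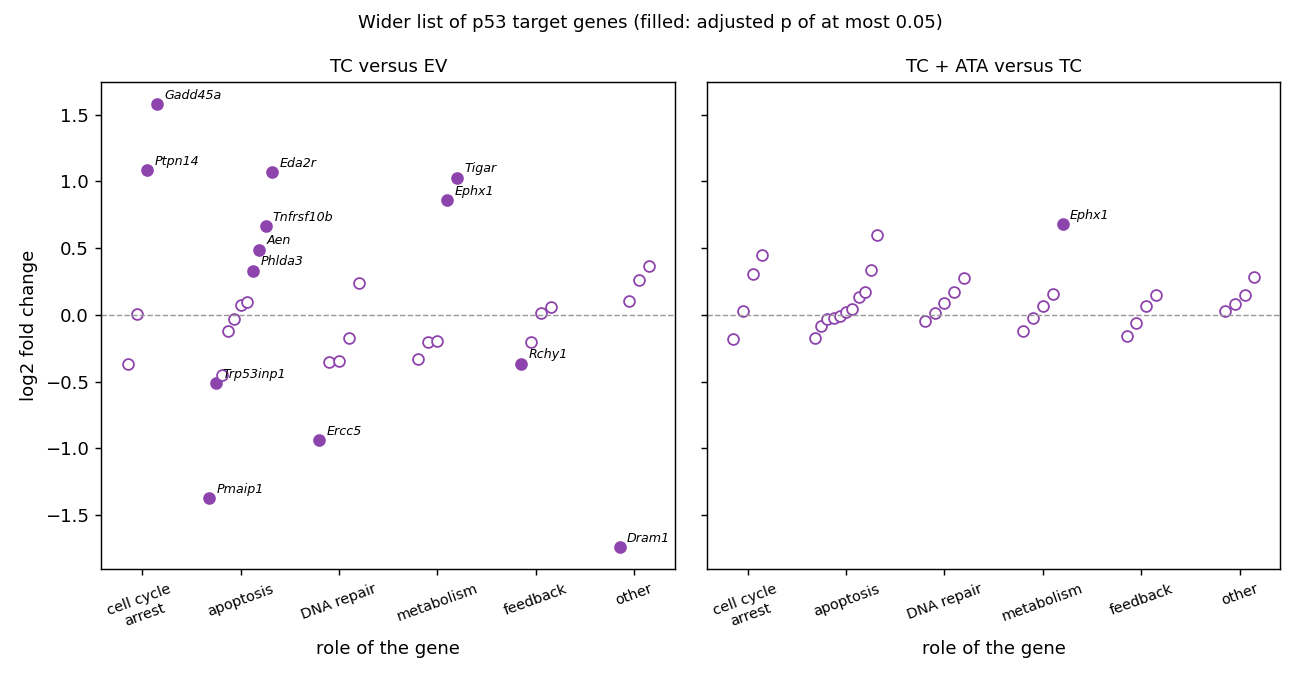
Log2 fold change (y axis, shared) of the other p53 targets tested, grouped by role along x, in TC versus EV (left) and TC + ATA versus TC (right), which share the TC library. Points are genes, filled and named where edgeR's adjusted p was at most 0.05, and Perp, with 0 counts in both EV libraries, is left out. On the left the filled points run from −1.74 (Dram1) to 1.58 (Gadd45a), and on the right Ephx1, at 0.68, is the only filled point.

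Among 17 regulators and relatives of p53, 15 were tested, of which 5 (33.3%) were called in TC versus EV, near the 28.0% of all genes. Called higher were 3, Hipk2 (log2 fold change 0.62), Chek2 (0.47) and Ep300 (0.26), where Hipk2 and Chek2 are kinases and Ep300 an acetyltransferase of p53. Called lower were 2, the DNA damage adaptor Trp53bp1 (−0.45) and the acetyltransferase Kat5 (−0.32). The calls of Ep300 (adjusted p = 0.0781 to 0.0906 by edgeR) and Kat5 (0.0778 to 0.0871) were lost without any one of the TC + ATA libraries. Hipk2 had the largest of these changes, at 32.8 and 29.8 CPM in EV, 48.1 CPM in TC and 58.3, 62.5 and 56.7 CPM in TC + ATA (adjusted p = 0.00139 in TC versus EV by edgeR). Mdm4, the partner of Mdm2 that inhibits p53, measured 62.8 and 88.6 CPM in EV, 78.7 CPM in TC and 79.0, 72.6 and 82.8 CPM in TC + ATA, so that the EV pair enclosed all other libraries (log2 fold change in TC versus EV 0.06, 95% interval −0.33 to 0.45, adjusted p = 0.853 by edgeR, with the sign turned by scaling to library size). None of the 15 was called in TC + ATA versus TC by edgeR, with 1 at an unadjusted p under 0.05 (9.61% of all genes), and none by DESeq2, although Hipk2 was called higher by edgeR with the EV libraries kept out (log2 fold change 0.31, adjusted p = 0.0115).

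Paralogues of the target genes, which are not all p53 targets themselves, were also measured. Sesn3, the sestrin known as a FOXO target, was at 33.3 and 38.7 CPM in EV, 11.5 CPM in TC and 9.75, 12.05 and 10.99 CPM in TC + ATA. Its groups with and without TC did not overlap, and it was called lower in TC versus EV (log2 fold change −1.64 ± 0.15 SE, adjusted p = 6.78e-05 by edgeR). Ccng2 (log2 fold change −0.73) and Zmat1 (−1.33) were also called lower, whereas Plk3 (0.97) was called higher and Btg1 (−0.14) and Bak1 (0.15) were not called, which makes 4 of 6 beside 28.0% of all genes. Sesn3 thus fell with Sesn1, while Plk3 rose where Plk2 had a log2 fold change of −0.31, which did not pass the test. None of the 6 paralogues was called in TC + ATA versus TC by edgeR, with 1 at an unadjusted p under 0.05 (9.61% of all genes), nor by DESeq2.

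**Figure D4:**
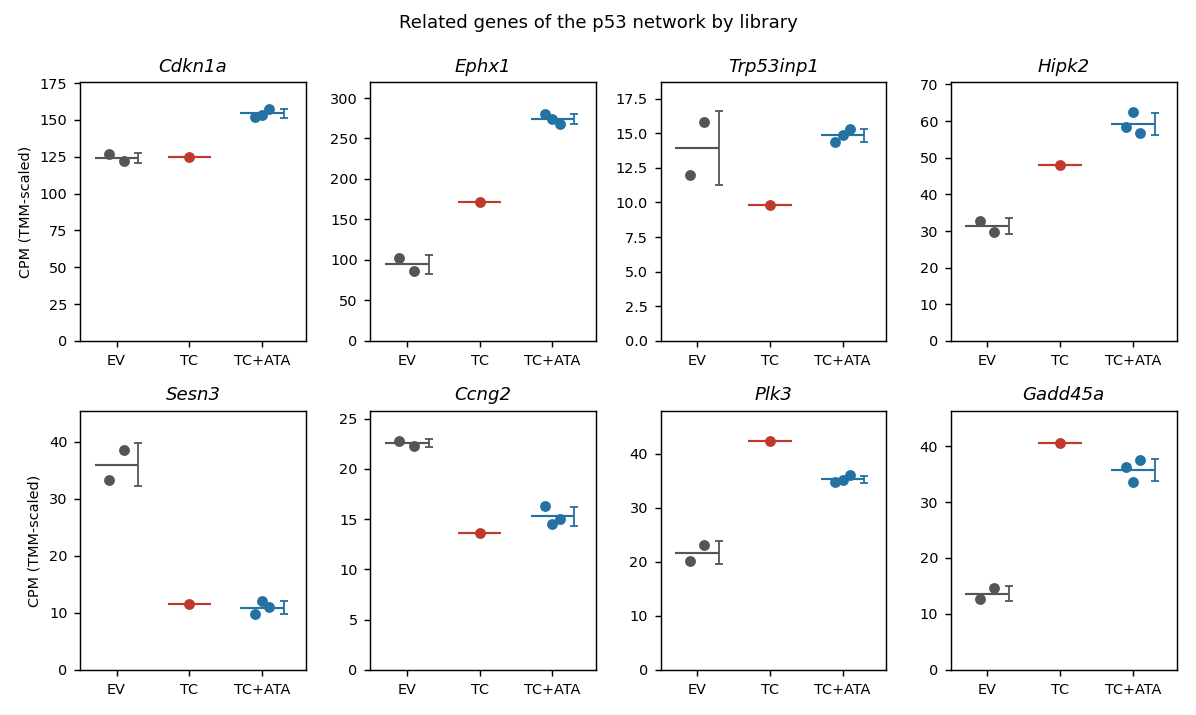
Level in CPM (TMM-scaled, linear axes from 0) of Cdkn1a, Ephx1, Trp53inp1, Hipk2, Sesn3, Ccng2, Plk3 and Gadd45a in the 6 libraries, drawn as points with group means as lines and the SD of EV (n = 2) and TC + ATA (n = 3) as offset bars. Cdkn1a and Ephx1 are highest in the 3 TC + ATA libraries, and Sesn3 and Ccng2 are higher in both EV libraries than in all 4 TC-expressing libraries.

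Cell cycle genes that p53 is known to lower through p21 and the DREAM complex were compared next. Of 10 such genes, 1 was called in TC versus EV, Bub1b of the spindle checkpoint (log2 fold change −0.25, adjusted p = 0.0377 by edgeR), beside 28.0% of all genes, a call lost without any one of the TC + ATA libraries (0.0923 to 0.119), and none in TC + ATA versus TC by edgeR, with 1 at an unadjusted p under 0.05 (9.61% of all genes), nor by DESeq2. Against EV, Cdk1 was called higher (0.29) and Bub1b (−0.37) and Aurkb (−0.26) lower by edgeR in TC + ATA, beside 36.6% of all genes. Cdk1 and Aurkb were named after their values were seen.

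Gdf15 and Sesn2 are also known as genes of the integrated stress response. Of 10 other genes of that response, 7 were called higher in TC versus EV, where 14.8% of all genes were called higher and 13.2% lower, among them Chac1 at 38.7 and 39.2 CPM in EV and 147 CPM in TC (log2 fold change 1.92, adjusted p = 7.24e-07 by edgeR), and Ddit4 was called lower (−0.38). In TC + ATA none of the 10 was called against TC by edgeR, with 2 at an unadjusted p under 0.05 (9.61% of all genes), nor by DESeq2. Btg2, Plk2 and Plk3 also respond early to growth factors. Of 10 immediate early genes, beside the same shares of all genes, 6 were called lower, led by Fos (−1.83), Ier2 (−1.50) and Egr1 (−1.31), and 3 higher, with Ier3 at 1.37. In TC + ATA versus TC edgeR called 1 of these 10 genes, Fos, beside 0.583% of all genes. Fos was higher there, from 1.93 CPM in TC to 5.84, 7.74 and 8.45 CPM (log2 fold change 1.93, adjusted p = 0.0194 by edgeR). The call was lost without TC + ATA replicate 2 (adjusted p = 0.0856 by edgeR) or replicate 3 (0.111). At an unadjusted p under 0.05 edgeR gave 6 of the 10 immediate early genes, beside 9.61% of all genes. DESeq2 called 3 after adjustment, beside 1.12% of 28562 genes. The part of these programmes in the changes of the p53 targets was not tested.

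The genes whose log2 CPM was most like that of Trp53 over the 6 libraries, by Pearson's r among 10423 genes with a mean of at least 5 CPM, were Cmss1 (r = 0.99), Ndufaf6, Fmnl3, Eif4a1 and Yars (r = 0.98 each). Those most like Mdm2 were Ccdc9b, Plekhg4, Gm9892, Rai1 and Klf7 (r = 0.99 to 1.00). These are descriptions over 6 libraries in 3 groups, chosen as the highest of many, and none of the 9 targets was among the genes most like Trp53.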

How the data were processed

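Bulk RNA-Seq of 6 NIH3T3 libraries was analysed. The authors selected poly(A) RNA and sequenced it paired-end on an Illumina HiSeq. Alignment to GRCm38.p6 (mm10) used HISAT2 2.2.1 and counting used featureCounts, both in Galaxy, per the paper's methods and the submitters' processing notes. Raw counts for each gene were deposited, not normalized. The annotation release and the use of strand are not given in the sources used here, so reads of overlapping or near-identical genes may be shared or lost. Of 55401 identifiers, 55141 were named from GENCODE M21.

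Genes were tested with edgeR 4.0.16 under R 4.3.3 (TMM, filterByExpr, glmQLFit and glmQLFTest, all 6 libraries, 3 residual degrees of freedom, Benjamini-Hochberg adjustment over 18539 genes). Standard errors and 95% intervals were derived from the F statistic. The study ranked genes for its gene set enrichment with limma. To call genes it used DESeq2, which served here (1.42.0) as an alternative. The other alternatives were fits of only the groups compared, 2 other scalings, 2 other low-count filters, a replicate block, and fits that left out each replicate of EV or TC + ATA in turn. A fit without the TC library was added after seeing the data. In every comparison, leaving out an EV replicate leaves 1 EV library, which is then assumed to vary like the TC + ATA libraries. The spread then comes from the TC + ATA libraries alone. For TC + ATA versus TC such fits are therefore not a check separate from the fit of only the groups compared.

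Besides Trp53, its 9 targets, Cdkn1a, Mdm4, Cdkn2a and the 6 paralogues, the genes named from each list were those called, averaging at least 5 CPM, that had the 3 largest changes in each direction in TC versus EV, or the 2 largest in TC + ATA versus TC. The genes and lists were chosen with earlier results of these data known. Trp53-ps, Perp, Rprm, Sco2, Cdk1, Aurkb and the marker genes were named after their values were seen. On simulated counts of TC versus EV over 17916 genes, the test recovered 89 of 100 genes changed 2-fold and 98 of 100 changed 4-fold, and called 16 unchanged genes. There each gene had the same spread in every library, and only these genes changed, alike in all TC-expressing libraries. In the data 28.0% of genes were called and the EV pair differed more than the TC + ATA pairs. The simulation therefore cannot show how often the test is right in these data.

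Library totals ran from 58471484 to 74413193 counts. At this depth Gdf15 had 29 to 120 counts in a library. What limits the precision was not tested.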

Additional observations from a re-analysis of the deposited data

How the results depend on the processing

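The number of the 10 genes called in TC versus EV (4) was 3 to 9 when 1 library was left out, at 9 without EV replicate 1, 7 without EV replicate 2 and 3 without any one of the TC + ATA replicates, where Mdm2 was lost. The share of all genes called in that comparison was 28.0%, and 40.5% and 40.0% without EV replicates 1 and 2. The number of other p53 targets (13) was 10 to 20, at 20 without EV replicate 1, where 40.5% of all genes were called. In TC + ATA versus TC, none of the 10 was called in all libraries, and none without any one of the TC + ATA replicates. With only the groups compared 2 were called (Trp53 and Bax), where 7.93% of all genes were called. Fits without an EV replicate also took the spread from the TC + ATA libraries alone, so they are not a separate check. Of the other p53 targets (1, Ephx1, beside 0.583% of all genes), 5 were called with only the groups compared (7.93% of all genes). Without the filter on low counts 2 were called (1.23%), and 2 by DESeq2 (1.12% of 28562 genes). None was called without any one of the TC + ATA replicates (0.0545% to 0.217% of all genes). In TC + ATA versus EV no alternative moved the total counts (6 and 16) by over 1.5 times, the fit without TC included, although the other targets called lower (4) became 8 without EV replicate 1, 7 with scaling by library size and 2 with the 5 CPM filter. Gdf15 was not tested with the filter at 5 CPM.

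Over all genes, 79 were called higher and 29 lower in TC + ATA versus TC, beside 795 and 633 with only the groups compared, 242 and 108 without the filter, 236 and 84 by DESeq2, 707 and 762 without EV replicate 1, 808 and 608 without EV replicate 2, and 28 and 12, 21 and 7, and 7 and 3 without TC + ATA replicates 1, 2 and 3. Scaling by library size shifted the median log2 fold change of all genes in TC versus EV from −0.0261 to −0.134 and its calls from 2735 higher and 2456 lower to 2072 and 3159, and in TC + ATA versus EV from −0.0107 to −0.0983 and from 3340 and 3449 to 2711 and 4384. With only the groups compared, TC versus EV gave 1858 and 1808. The cause was not tested.

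The replicate numbers 1 and 2 occur in both EV and TC + ATA, but same-numbered libraries did not deviate together (r = 0.02 and −0.22), so the samples share only a number. With the replicate number as a block, 4, 0 and 5 of the 10 genes were called in TC versus EV, TC + ATA versus TC and TC + ATA versus EV, and 9, 0 and 13 of the other p53 targets. The calls of Zmat3 (adjusted p = 0.0965) and Cdkn1a (0.0558) in TC + ATA versus EV were lost in edgeR with the block. So were those of Ephx1 in TC + ATA versus TC (0.107) and Trp53inp1 in TC versus EV (0.189). Over all genes the block gave 1717 higher and 1467 lower genes for TC versus EV, 32 and 8 for TC + ATA versus TC, and 2450 and 2195 (25.1%) for TC + ATA versus EV. Under the block, log2 fold changes changed sign in TC versus EV for Cdkn1a (−0.006), in TC + ATA versus TC for Mdm2 (−0.101), Plk2 (−0.007), Gdf15 (0.166), Kat5 (−0.041), Ppp1r15a (−0.112), Psat1 (0.015) and Ier3 (−0.024), and in TC + ATA versus EV for Fos (−0.015).

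The other changes of sign were of values not called with all libraries. With scaling by library size they were Sesn2 (−0.075), Cdkn1a (−0.102) and Mdm4 (−0.062) in TC versus EV, Mdm4 (0.01) and Chek2 (0.003) in TC + ATA versus TC, and Mdm4 (−0.051) and Trp53inp1 (−0.003) in TC + ATA versus EV. Cdkn1a also changed with upper quartile scaling (−0.003) and without the filter (−0.003) in TC versus EV, and Mdm4 (0.001) with the 5 CPM filter in TC + ATA versus TC. With 1 replicate left out, values on both sides of 0 were given by Cdkn1a (−0.025 to 0.022) and Mdm4 (−0.184 to 0.324) in TC versus EV, by Mdm2 (−0.031 to 0.034), Zmat3 (−0.069 to 0.019), Mdm4 (−0.052 to 0.04), Dram1 (−0.015 to 0.097), Chek2 (−0.048 to 0.01), Kat5 (−0.004 to 0.058), Ppp1r15a (−0.032 to 0.116) and Ier3 (−0.047 to 0.06) in TC + ATA versus TC, and by Trp53 (−0.192 to 0.059), Mdm4 (−0.196 to 0.325), Trp53inp1 (−0.107 to 0.315) and Fos (−0.098 to 0.329) in TC + ATA versus EV. Among these, edgeR called Mdm4 in TC versus EV without EV replicate 2 (0.324, adjusted p = 0.00916), Mdm4 in TC + ATA versus EV without EV replicate 1 (−0.196, 0.0308) and replicate 2 (0.325, 0.00272), and Trp53 (−0.192, 0.00128) and Trp53inp1 (0.315, 0.0182) there without EV replicate 2.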
